A study of Rattus norvegicus with 15 samples.

Results

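Rat airway epithelial cells given 10% CSE for 24 h were compared with cells that received no treatment, and both were read by sequencing their messenger RNA. The cells were freed from digested rat trachea, expanded, and grown for weeks at an air-liquid interface, a culture in which the upper side of the cell layer faces air and the cells differentiate into basal, secretory and ciliated cells. The comparison takes 10 of the study's 15 libraries, 5 of CSE-treated and 5 of control cells. The other 5 libraries, from cells given the same CSE and 100 µM naringenin, a citrus flavonoid that was also given for 4 h beforehand, entered the fit only for its estimate of spread. CSE is left as the labels have it. The labels give no strain, sex or age of the rats and do not say whether the 5 libraries of a group came from separate animals or cultures, so the p-values measure the spread between these libraries, which may be technical.

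Library totals were 57476010 to 60553124 counts in CSE and 57071315 to 59697164 counts in control libraries, and 15860 of the 21969 genes in the table had enough counts to be tested. Levels are CPM, counts scaled for the size and composition of each library, listed for libraries 1 to 5 in that order. A difference is the log2 of the CSE level over the control level with its standard error, from edgeR's quasi-likelihood test, and a gene is said to have risen or fallen where the p adjusted over all genes (Benjamini-Hochberg) was under 0.05. The floor of detection, taken as 3 counts, equals 0.0495 to 0.0526 CPM in these libraries and covers counting error only. The cells carried the epithelial markers Epcam, at 415, 379.5, 391, 374 and 445 CPM in the CSE libraries, against 512, 514, 516, 481 and 638 CPM in the control libraries, and Krt8, at 798, 1007, 816, 1047 and 1086 CPM in the CSE libraries, against 1399, 1403, 1806, 1872 and 1566 CPM in the control libraries. Both markers were lower in every CSE library than in any control library, at a difference of -0.41 ± 0.08 (adjusted p 0.0024) for Epcam and -0.76 ± 0.12 (adjusted p 0.000705) for Krt8. Not all epithelial markers fell: of 14 tested, 6 were lower, 1 was higher and 7 did not pass the test (median -0.32). Over all genes tested 10.4% were lower and 10.8% higher. The call of the marker that rose was lost without CSE 3. Few leukocyte markers were detected: 4 of 12 passed the filter on low counts, Ptprc, Itgam and Tyrobp not among them, and those 4 summed to 3.03 to 7.93 CPM in CSE and 2.15 to 10.3 CPM in control libraries. The 4 tested endothelial markers summed to 12.7 to 21.2 CPM in CSE and 12.1 to 22.2 CPM in control libraries. The 14 tested markers of smooth muscle, fibroblasts and cartilage summed to 25.5 to 134 CPM in CSE and 161 to 593 CPM in control libraries.

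The libraries also differed in a way that the treatment did not define. Clustering of the counts after removal of the group means, cut at a chosen number of 3, put them into 3 sets: CSE 1 and 3 with control 1 and 2 (set 1), CSE 2 and 4 with control 3 and 4 (set 2), and CSE 5 with control 5 (set 3). A block by these sets, given below as an alternative, is drawn from the same counts. It takes up spread by construction, so its larger counts are not separate support. The first principal component of the 10 libraries, with 33.2% of the variance, separated CSE from control. The second, with 22.1%, separated set 2 from the other sets within both groups. Differences given below by library set are plain differences of mean log2 CPM (prior count 2), without edgeR's fit. Those of set 3 rest on 1 library of each group. Control 5 stood apart from the other controls in immediate early, hypoxia and interferon-induced genes. Several results in which it was extreme are given with and without it, and others only with it.

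**Figure D1:**
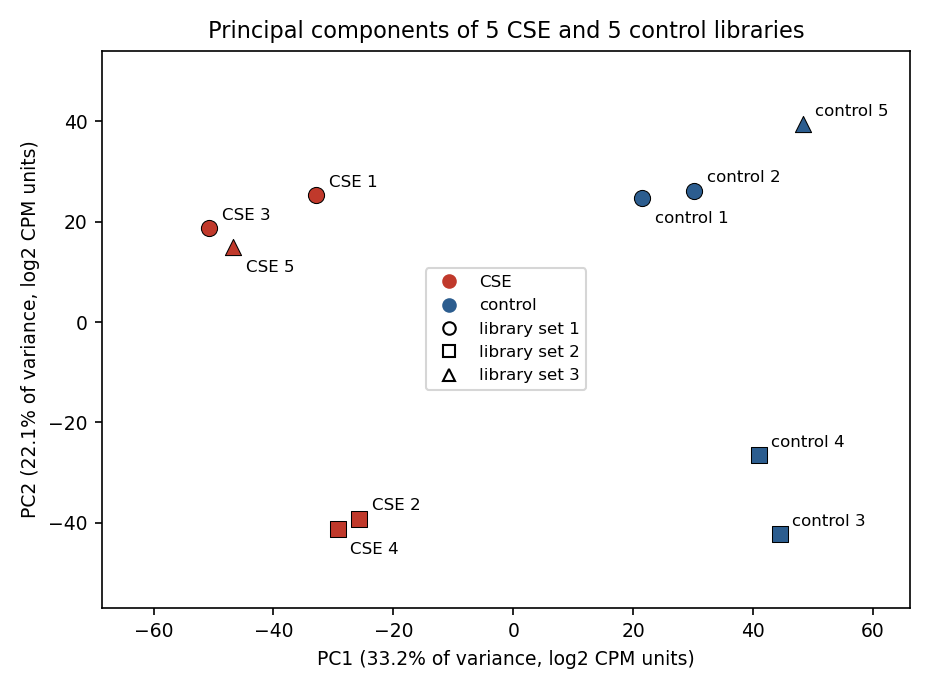
Principal components of log2 CPM for the 5 CSE (red) and 5 control (blue) libraries; the x axis is the first component and the y axis the second, in log2 CPM units, and symbols mark the 3 library sets. CSE libraries lie between -50.7 and -25.7 on the first component and control libraries between 21.5 and 48.3, while the 4 libraries of set 2 lie between -42.3 and -26.5 on the second.

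CSE changed 3363 of the 15860 genes tested, or 21.2%. Of these, 1711 (10.8% of genes tested) were higher and 1652 (10.4%) lower in CSE. Changes of at least 2-fold were more often falls: 192 genes (1.21%) rose and 531 (3.35%) fell that far. In 2323 genes (14.6%) the 5 CSE libraries did not overlap the 5 control libraries, with CSE above in 8.32% and below in 6.33% of genes tested. The median difference over all genes was -0.003 on the log2 scale. The split between directions depended on the values used: on the authors' FPKM values, log2(FPKM + 0.1), limma called 2380 genes higher and 1306 lower. The members of each gene group below are read against these shares.

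**Figure D2:**
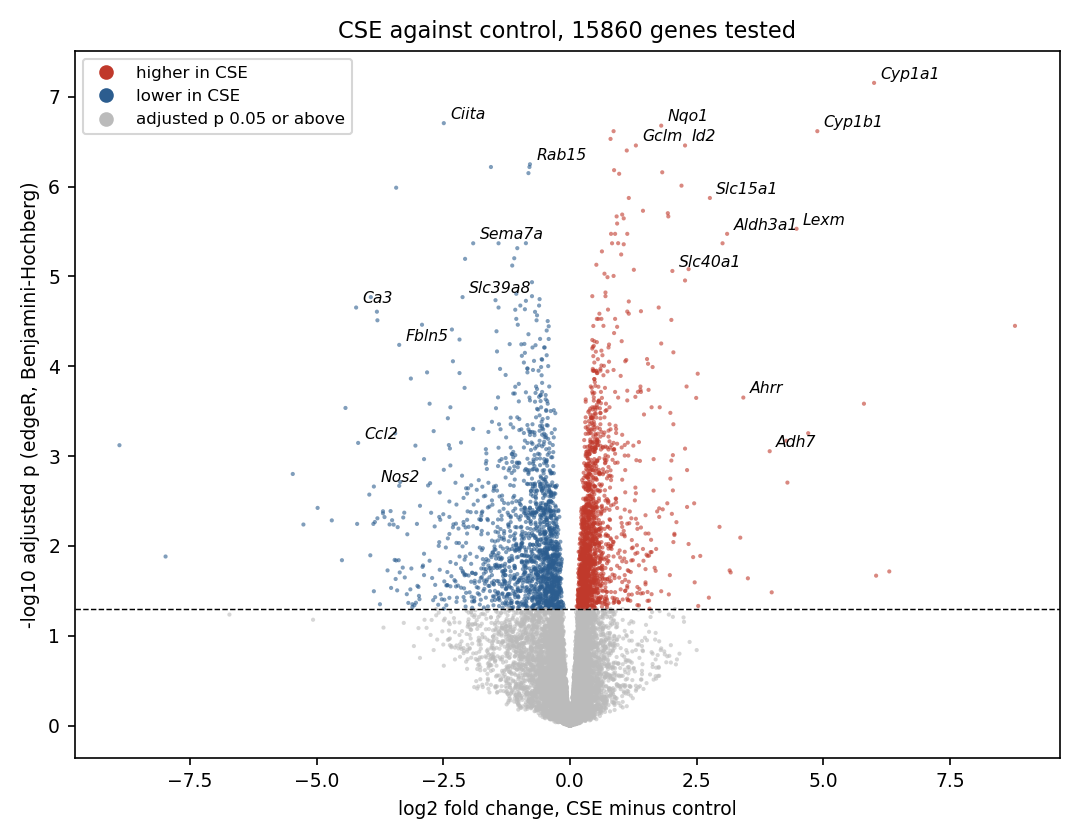
Each point is 1 of 15860 genes; the x axis is the log2 fold change of CSE over control and the y axis -log10 of edgeR's adjusted p, with the dashed line at 0.05. Genes higher in CSE are red, genes lower in CSE blue and all others grey, and Cyp1a1 lies farthest up on the right, Ciita on the left.

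Cells of the airway lining meet foreign chemicals through 2 well-described sensor systems. The aryl hydrocarbon receptor (Ahr) sits in the cytoplasm with chaperones, enters the nucleus when it binds a planar aromatic ligand, pairs with Arnt, and binds DNA at the core letters GCGTG near genes such as those of the CYP1 family of oxidising enzymes. NRF2, encoded by Nfe2l2, is held by Keap1 and passed to the proteasome until electrophiles modify Keap1. It then pairs with a small Maf protein and binds antioxidant response elements, written TGACNNNGC, near genes that make glutathione, supply NADPH and conjugate or export reactive compounds. Promoter windows of 3 genes that rose are shown because they hold these letters: Cyp1b1 and Ahrr hold GCGTG and Gclm holds TGACNNNGC, on either strand. The sequences are from RefSeq on build GRCr8, from 250 bases before to 50 after the annotated start, with the matching letters in capitals (a match on the other strand appears as CACGC or as the reverse complement of TGACNNNGC). Cyp1b1 lies at chr6:21094315-21094614, Ahrr at chr1:30821969-30822268 and Gclm at chr2:213031885-213032184, each on the plus strand.
Cyp1b1: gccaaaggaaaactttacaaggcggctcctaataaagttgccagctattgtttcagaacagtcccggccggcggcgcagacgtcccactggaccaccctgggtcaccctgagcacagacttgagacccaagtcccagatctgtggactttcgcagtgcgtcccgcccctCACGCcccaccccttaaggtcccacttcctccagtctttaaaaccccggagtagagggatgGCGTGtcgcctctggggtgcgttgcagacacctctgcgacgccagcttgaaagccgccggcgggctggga
Ahrr: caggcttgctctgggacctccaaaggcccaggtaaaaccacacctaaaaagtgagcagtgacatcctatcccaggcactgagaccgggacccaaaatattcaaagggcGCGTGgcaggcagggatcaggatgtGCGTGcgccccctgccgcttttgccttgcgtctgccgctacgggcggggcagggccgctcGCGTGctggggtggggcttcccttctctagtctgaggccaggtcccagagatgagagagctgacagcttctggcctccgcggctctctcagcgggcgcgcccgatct
Gclm: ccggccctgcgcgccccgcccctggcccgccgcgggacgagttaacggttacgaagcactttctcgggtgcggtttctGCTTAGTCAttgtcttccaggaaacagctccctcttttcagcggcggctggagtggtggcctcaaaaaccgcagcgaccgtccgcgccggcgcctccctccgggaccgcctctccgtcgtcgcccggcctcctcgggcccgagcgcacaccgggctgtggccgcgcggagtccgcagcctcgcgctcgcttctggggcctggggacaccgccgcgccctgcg
Cyp1b1 has 2 matches to GCGTG, Ahrr has 3, and Gclm has 1 match to TGACNNNGC. Such matches are common: 31.1% of the 27457 promoter windows in the table held GCGTG and 12.2% held TGACNNNGC. Among the 10680 tested genes with a window, the shares were 48.8% and 14.7%. GCGTG was found in 54.4% of the windows of genes that rose and 46.1% of those of genes that fell, and TGACNNNGC in 16% and 15.1%. Among genes that changed at least 2-fold, GCGTG was less frequent in the windows of those higher (37.6%) than of those lower (43.3%), and TGACNNNGC was in 19.2% and 11.3%.

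The genes of the Ahr pathway that rose were its targets and its feedback inhibitors. Of 8 tested members, 4 were higher in CSE (Cyp1a1, Cyp1b1, Tiparp and Ahrr), and the other 4 did not pass the test. Cyp1a1, an oxidase of polycyclic aromatic compounds, stood at 203, 321, 160.0, 271 and 122 CPM in the CSE libraries, against 2.65, 3.55, 3.71, 4.68 and 2.21 CPM in the control libraries. Its lowest CSE value was far above its highest control value, at a difference of 6.0 ± 0.31 (adjusted p 7.02e-08). Cyp1b1, its relative that also oxidises estrogens, stood at 279, 322, 196, 341 and 189.6 CPM in the CSE libraries, against 7.57, 9.11, 12.5, 10.6 and 5.29 CPM in the control libraries. CSE 2 and 4 were the highest libraries for both enzymes, and the groups did not overlap (difference 4.88 ± 0.31, adjusted p 2.42e-07).

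Ahrr, which encodes a repressor that competes with Ahr for Arnt, stood at 6.59, 3.77, 7.5, 4.1 and 3.21 CPM in the CSE libraries, against 0.635, 0.52, 0.205, 0.331 and 0.65 CPM in the control libraries. The CSE libraries of set 1 were the highest, no CSE library overlapped a control, and the difference was 3.42 ± 0.48 (adjusted p 0.000223). Tiparp, an ADP-ribosyltransferase that marks Ahr for removal, stood at 191, 179.5, 207, 178 and 219 CPM in the CSE libraries, against 90.4, 82.1, 65.7, 64.5 and 105 CPM in the control libraries. All 5 CSE libraries were above all 5 controls, at a smaller difference of 1.26 ± 0.12 (adjusted p 8.44e-06). Ahr itself stood at 171, 152, 153, 157 and 133 CPM in the CSE libraries, against 99.5, 100.1, 136, 114 and 214 CPM in the control libraries. Control 5 was above every CSE library, and the difference of 0.21 ± 0.18 (adjusted p 0.431) did not pass the test. Without control 5 it was 0.45 (adjusted p 0.0105). Arnt, the partner, stood at 38.6, 34.2, 35.4, 30.9 and 36.2 CPM in the CSE libraries, against 37.3, 34.6, 34.5, 31.9 and 38.3 CPM in the control libraries, and the groups overlapped almost completely (difference -0.01 ± 0.08, adjusted p 0.944).

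**Figure D3:**
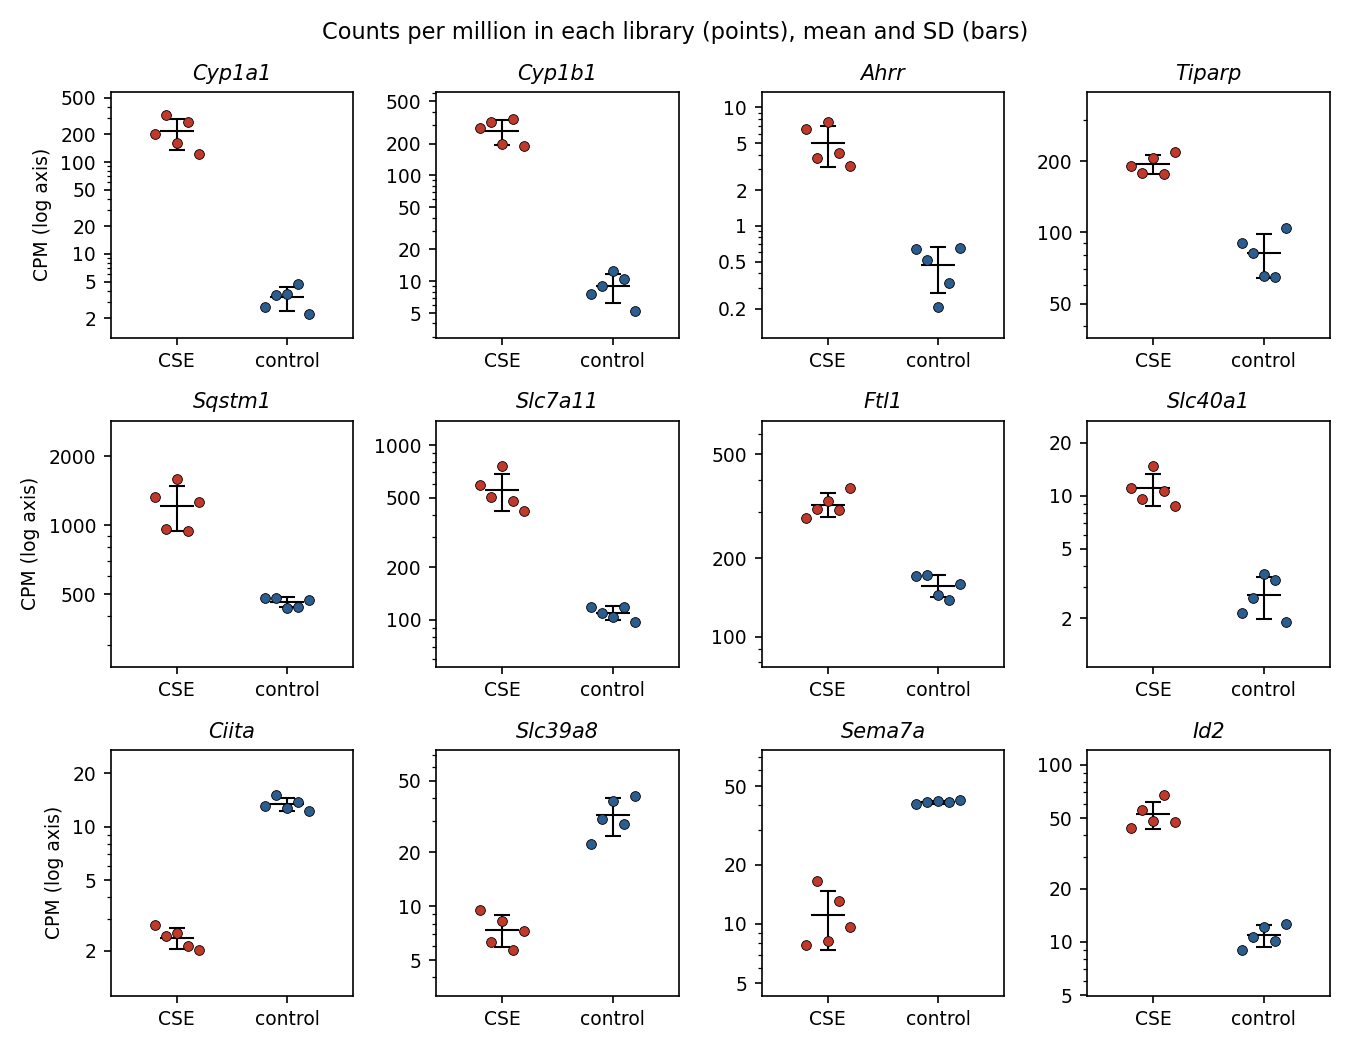
CPM of 12 genes in each library (points) with mean and SD (bars), on log axes, CSE left and control right in each panel. In all 12 genes the 5 CSE libraries lie apart from the 5 control libraries, above them in 9 genes and below them in Ciita, Slc39a8 and Sema7a.

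Part of the machinery that holds or opposes NRF2 rose, as did NRF2 itself. Of 11 tested regulators 6 were higher, with a median difference of 0.20 over the 11: Sqstm1, Bach1, Keap1, Nfe2l2, Mafg and Cul3. Sqstm1 encodes p62, an autophagy receptor that binds Keap1. It stood at 1333, 960.1, 1585, 943 and 1264 CPM in the CSE libraries, against 479.8, 482, 433, 437 and 471 CPM in the control libraries. CSE 2 and 4 were the lowest CSE libraries and far above the controls, which kept within a narrow range, and the difference was 1.4 ± 0.15 (adjusted p 2.44e-05). Keap1, the adaptor that holds NRF2, stood at 74.7, 70.2, 82.3, 64.6 and 59.7 CPM in the CSE libraries, against 50.9, 49.6, 46.4, 49 and 34.1 CPM in the control libraries. The groups did not overlap, and the difference was 0.61 ± 0.12 (adjusted p 0.00214).

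Bach1, a repressor that competes with NRF2 at the same elements and is released by heme, rose by 0.79 ± 0.15 (adjusted p 0.00165), with CSE 1 and 3 the highest. Nfe2l2 stood at 259, 233, 266, 240.5 and 249 CPM in the CSE libraries, against 186, 187, 179.6, 179.8 and 212 CPM in the control libraries. Every CSE library was above every control, by 0.40 ± 0.06 (adjusted p 0.000654). Mafg, a small Maf partner, rose by 0.32 ± 0.07 (adjusted p 0.00455), and Cul3, the ubiquitin ligase scaffold that works with Keap1, by 0.20 ± 0.05 (adjusted p 0.0085). The remaining regulators, among them Rbx1 (0.08) and the NRF2 relative Nfe2l1 (-0.07), did not pass the test.

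Of the 20 tested genes that NRF2 controls in redox metabolism, 18 rose and 2 (Abcc2 and Niban1) did not pass the test, with a median difference of 0.77. In 17 of them the groups did not overlap. Slc7a11, which imports cystine for glutathione synthesis, stood at 593, 509, 767, 480.3 and 422 CPM in the CSE libraries, against 119, 110.0, 104, 119 and 97 CPM in the control libraries. CSE 3 was the highest library and CSE 5 the lowest of the CSE group, and the lowest was still over 3 times the highest control (difference 2.34 ± 0.22, adjusted p 8.3e-06). Gclm, the modifier subunit of the enzyme that makes the first bond of glutathione and the owner of the promoter printed above, stood at 1213, 1161, 1356, 1174 and 1108 CPM in the CSE libraries, against 516, 488, 446, 498 and 494 CPM in the control libraries. Both groups were tight and far apart, and the difference was 1.3 ± 0.09 (adjusted p 3.49e-07). Gclc, the catalytic subunit of the same enzyme, rose by 0.80 ± 0.12 (adjusted p 0.000503) and Gss, which adds the glycine, by 0.54 ± 0.09 (adjusted p 0.000709). Slc25a39, which carries glutathione into mitochondria, was among the 10 genes with the smallest adjusted p and stood at 157, 149, 167, 153 and 159 CPM in the CSE libraries, against 88.4, 90.7, 94, 84.8 and 93.8 CPM in the control libraries. The values within each group were close, and the difference was 0.80 ± 0.05 (adjusted p 2.95e-07).

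Of 12 tested enzymes of the pentose phosphate pathway or of NADPH production 6 rose and 2 fell (median 0.22). The cytosolic pentose phosphate enzymes Tkt (0.87) and Taldo1 (0.76), malic enzyme Me1 (0.75) and isocitrate dehydrogenase Idh1 (0.48) were 4 of the 6 that rose. H6pd, which makes NADPH inside the endoplasmic reticulum, stood at 258, 325, 238, 302 and 305 CPM in the CSE libraries, against 372, 376, 462, 465 and 662 CPM in the control libraries. It was lower in every CSE library, at a difference of -0.71 ± 0.15 (adjusted p 0.00431), and control 5 was the highest library. Nnt, the transhydrogenase of the inner mitochondrial membrane, stood at 31.4, 38, 31.3, 38.9 and 30 CPM in the CSE libraries, against 47.8, 47.8, 58.9, 53.6 and 46.5 CPM in the control libraries, also with no overlap (difference -0.59 ± 0.10, adjusted p 0.00106). Of 10 tested superoxide dismutases, catalase and glutathione peroxidases 2 rose, 2 fell and 6 did not pass the test (median -0.37). Of 15 tested thioredoxin and peroxiredoxin genes 4 rose, 1 fell and 10 did not pass it (median 0.23). Among these genes, catalase (Cat) rose by 0.80 ± 0.14 (adjusted p 0.00144) and Prdx1, a peroxiredoxin, by 0.76 ± 0.12 (adjusted p 0.000607). The glutathione peroxidases Gpx4 (difference -0.77 ± 0.15, adjusted p 0.00243) and Gpx1 (difference -0.81 ± 0.19, adjusted p 0.00818) fell. Gpx4 stood at 70.8, 81.5, 73.6, 83.3 and 99.4 CPM in the CSE libraries, against 137, 189, 127, 114 and 129 CPM in the control libraries. All 5 CSE libraries were under all 5 controls. Gpx2, a glutathione peroxidase of epithelia, differed by -0.24 ± 0.14 (adjusted p 0.23) and did not pass the test.

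Genes that handle heme and iron were mostly higher among those that passed the test. Of 16 tested members 8 were higher and 1 lower, with a median difference of 0.55. Hmox1, the enzyme that opens the heme ring and frees its iron, stood at 1104, 558, 1262, 572 and 1449.8 CPM in the CSE libraries, against 144, 139, 142, 154 and 283 CPM in the control libraries. CSE 1, 3 and 5 were about 2-fold above CSE 2 and 4, and control 5 was the highest control (difference 2.52 ± 0.33, adjusted p 0.000121). By library set the difference was 3.06 in set 1, 1.93 in set 2 and 2.36 in set 3. Blvrb, a biliverdin reductase that acts on the product, rose by 0.89 ± 0.08 (adjusted p 3.36e-06), and Slc48a1, which moves heme out of endosomes and lysosomes, by 0.81 ± 0.07 (adjusted p 3.36e-06).

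Storage, export and import of iron were each represented. The row named Ftl1, for the light chain of ferritin that stores iron, stood at 285, 309.6, 332, 306 and 373 CPM in the CSE libraries, against 171, 173, 144, 138 and 159 CPM in the control libraries. Every CSE library was above every control, at 1.03 ± 0.08 (adjusted p 2.05e-06). The heavy chain Fth1 rose by 0.65 ± 0.19 (adjusted p 0.0234), and this call was lost without CSE 3 (0.61, adjusted p 0.0534), CSE 5 (0.57, adjusted p 0.059) or control 4 (0.56, adjusted p 0.0599). Slc40a1, ferroportin, the iron exporter of the cell, stood at 11.1, 9.62, 14.8, 10.7 and 8.78 CPM in the CSE libraries, against 2.14, 2.6, 3.57, 3.31 and 1.91 CPM in the control libraries. The lowest CSE library was over 2 times the highest control, and the difference was 2.02 ± 0.19 (adjusted p 8.7e-06). Tfrc, the transferrin receptor that imports iron, stood at 174, 130.0, 164, 141 and 200.0 CPM in the CSE libraries, against 68, 72.5, 62.2, 59.1 and 108 CPM in the control libraries. It rose by 1.13 ± 0.15 (adjusted p 0.000187) with no overlap, and control 5 and CSE 5 were the highest of their groups. The member that fell was Slc11a2, a divalent metal importer, at -0.69 ± 0.10 (adjusted p 0.000248). Fech, which inserts iron into heme, rose by 0.86 ± 0.14 (adjusted p 0.000712). Ferritin genes have processed copies in the genome, so their counts are uncertain where reads could be shared. The row named Ftl1 is placed on chromosome 5, 152325871 to 152326778. Whether it is the gene or such a copy was not tested.

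Enzymes that clear electrophiles, aldehydes and ketones rose in part of each class. Of 20 tested glutathione S-transferases 9 rose and 11 did not pass the test (median 0.22). Gstp1 rose by 0.75 ± 0.13 (adjusted p 0.00101) and Gsta3 by 1.65 ± 0.28 (adjusted p 0.00108). Gsta5 stood at 0.911, 1.24, 0.466, 1.64 and 0.279 CPM in the CSE libraries, against 0, 0, 0.0342, 0 and 0.0371 CPM in the control libraries. In the control group 3 libraries held no count of it, so no fold is given, and reads of near-identical Gsta copies could have been split. Of 13 aldo-keto and carbonyl reductases 4 rose and 1 fell, a fall whose call was lost when any library except CSE 1 or control 3 was left out. Akr1b8, which reduces aldehydes such as acrolein, stood at 1030.4, 1261, 1136, 1396 and 1549.7 CPM in the CSE libraries, against 314, 292, 295, 269.5 and 491 CPM in the control libraries, with no overlap (difference 1.94 ± 0.16, adjusted p 2.15e-06). Akr7a3, an aflatoxin aldehyde reductase, stood at 120.2, 119, 144, 130.4 and 104 CPM in the CSE libraries, against 39.1, 36.4, 33.4, 37.1 and 28.9 CPM in the control libraries. It rose by 1.82 ± 0.13 (adjusted p 6.94e-07), with the groups far apart.

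Of 13 aldehyde dehydrogenases 3 rose and 2 fell, or 1 without CSE 1, 4 or 5 or control 1, 2 or 4. Aldh3a1 stood at 1884, 1590.2, 1266, 1657 and 1465 CPM in the CSE libraries, against 148, 177, 124, 132 and 335 CPM in the control libraries. Control 5 was the highest control, no control reached the CSE range, and the difference was 3.1 ± 0.27 (adjusted p 3.36e-06). Adh7, an alcohol dehydrogenase of upper airway and gut lining that also oxidises retinol, stood at 140.4, 34.4, 105, 35.9 and 45 CPM in the CSE libraries, against 8.15, 7.86, 1.21, 2.35 and 3.93 CPM in the control libraries. CSE 1 and 3 were far above the other CSE libraries, and controls 1 and 2 were the highest controls. The difference was 3.92 in set 1, 4.35 in set 2 and 3.5 in set 3, and 3.94 ± 0.66 (adjusted p 0.000882) over all. Adh7 belongs to 19 tested genes of retinoid metabolism, of which 2 rose and 4 fell. Of those that fell, Dhrs9, a retinol dehydrogenase, differed by -0.61 ± 0.08 (adjusted p 0.000219).

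Of 15 tested genes of glucuronide, sulfate and epoxide conjugation 6 rose and 4 fell. Ugdh, which makes the glucuronic acid donor, stood at 273, 188, 298, 195 and 199 CPM in the CSE libraries, against 94.3, 99.3, 67.3, 69.6 and 67.2 CPM in the control libraries. All CSE libraries were above all controls, at 1.54 ± 0.19 (adjusted p 9.38e-05). Ugt1a6, a glucuronyltransferase for planar phenols, rose by 0.90 ± 0.14 (adjusted p 0.000459), with the caution that Ugt1a isoforms share exons. Of the sulfotransferases 3 fell and 1 rose. Sult1a1, which sulfates small phenols, stood at 12.3, 7.27, 7.93, 5.01 and 4.7 CPM in the CSE libraries, against 41.3, 44, 20.4, 27.1 and 24.2 CPM in the control libraries. The highest CSE library was below the lowest control, and the difference was -2.08 ± 0.28 (adjusted p 0.000174). Sult1d1 (-1.67 ± 0.33, adjusted p 0.00276) and Sult1c2 (-1.84 ± 0.42, adjusted p 0.00634) fell too, whereas Sult2b1, which sulfates sterols, rose by 0.52 ± 0.12 (adjusted p 0.00838).

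Among 28 tested ABC transporters 7 rose and 21 did not pass the test, with a median of 0.08. Abcc4, an exporter of organic anions and cyclic nucleotides, stood at 105, 91.1, 128, 88.4 and 76.9 CPM in the CSE libraries, against 31, 28.7, 21.1, 25.6 and 15.7 CPM in the control libraries. All CSE libraries were above all controls, CSE 5 and control 5 were the lowest of their groups, and the difference was 2.0 ± 0.22 (adjusted p 3.05e-05). Abcc3 and Abcc1, exporters of glutathione and glucuronide conjugates, rose by 0.78 ± 0.16 (adjusted p 0.00396) and 0.37 ± 0.08 (adjusted p 0.00713). Abca7, a lipid transporter, rose by 0.56 ± 0.07 (adjusted p 0.000169). The peptide importer Slc15a1, which is best known from intestine and kidney, was among the 12 largest rises and stood at 17.7, 18.8, 20.5, 19.5 and 19.6 CPM in the CSE libraries, against 2.47, 2.39, 3.71, 3.55 and 2.02 CPM in the control libraries. The CSE libraries were within a narrow range, at 2.76 ± 0.22 (adjusted p 1.34e-06).

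Genes for protein turnover and synthesis rose by small amounts across many members. Of 38 tested proteasome subunits 31 rose and 7 did not pass the test, with a median difference of 0.33, and in 28 of them the groups did not overlap. Psmd5, a chaperone of proteasome assembly, had the largest rise of the list and stood at 113, 106, 111, 106 and 130.2 CPM in the CSE libraries, against 69.2, 70.9, 74.5, 73.4 and 60.1 CPM in the control libraries. CSE 5 was the highest and control 5 the lowest library, and the difference was 0.70 ± 0.07 (adjusted p 1.51e-05). Psmd2, Psmd3 and Psmd7, subunits of the regulatory lid and base, rose by 0.45 ± 0.06 (adjusted p 0.000112), 0.47 ± 0.06 (adjusted p 5.93e-05) and 0.44 ± 0.05 (adjusted p 5.1e-05). The subunits that did not pass the test included those of the immunoproteasome, the form that interferon induces for antigen processing: Psmb8 at 0.07, Psmb9 at -0.25 and Psmb10 at 0.03.

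Many factors that assemble ribosomes rose, while the proteins of the ribosome itself did not pass the test. Of 39 tested assembly factors 25 rose (median 0.34). Nop16, a nucleolar factor of the large subunit, stood at 51.8, 54.5, 55.4, 58.1 and 54.1 CPM in the CSE libraries, against 39.1, 39.7, 41.1, 41.1 and 41.3 CPM in the control libraries. Its groups were tight and apart, at 0.44 ± 0.04 (adjusted p 1.66e-05). Nop56, a core protein of the particles that methylate ribosomal RNA, rose by 0.61 ± 0.09 (adjusted p 0.000258), Nolc1, a nucleolar chaperone, by 0.46 ± 0.05 (adjusted p 3.56e-05), and Ltv1, a factor of small subunit export, by 0.54 ± 0.07 (adjusted p 0.000119). Of 77 cytosolic ribosomal proteins edgeR called 0, with a median of -0.04. At an unadjusted p under 0.05 the count was also 0, and DESeq2 called 0. Without control 5, 3 of them were called higher.

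Of 74 mitochondrial ribosomal proteins 20 rose (median 0.20), of which Mrps22 (0.53 ± 0.09, adjusted p 0.00113) and Mrpl4 (0.39 ± 0.07, adjusted p 0.00157) had the smallest adjusted p. That count was 13 without control 4 and 36 on FPKM values. The median was 0.03 in set 1, 0.30 in set 2 and 0.31 in set 3. Of 76 nuclear-encoded subunits of the respiratory chain 2 rose, Ndufs1 (0.20 ± 0.05, adjusted p 0.018) and Cox5a (0.25 ± 0.07, adjusted p 0.0289), and the call of Cox5a was lost when CSE 2, 3 or 5 or control 3 or 4 was left out (adjusted p 0.0507 to 0.0704). Without control 3, 5 subunits fell. Of 37 aminoacyl-tRNA synthetases, which charge tRNAs with amino acids, 20 rose (median 0.30), a count that was 13 without CSE 1, 13 without control 4 and 11 without library set 3. Pars2 and Farsb, for mitochondrial proline and cytosolic phenylalanine, rose by 0.70 ± 0.10 (adjusted p 0.000314) and 0.51 ± 0.08 (adjusted p 0.000337), Kars by 0.36 ± 0.07 (adjusted p 0.00155) and Tars1 by 0.33 ± 0.07 (adjusted p 0.00373).

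**Figure D4:**
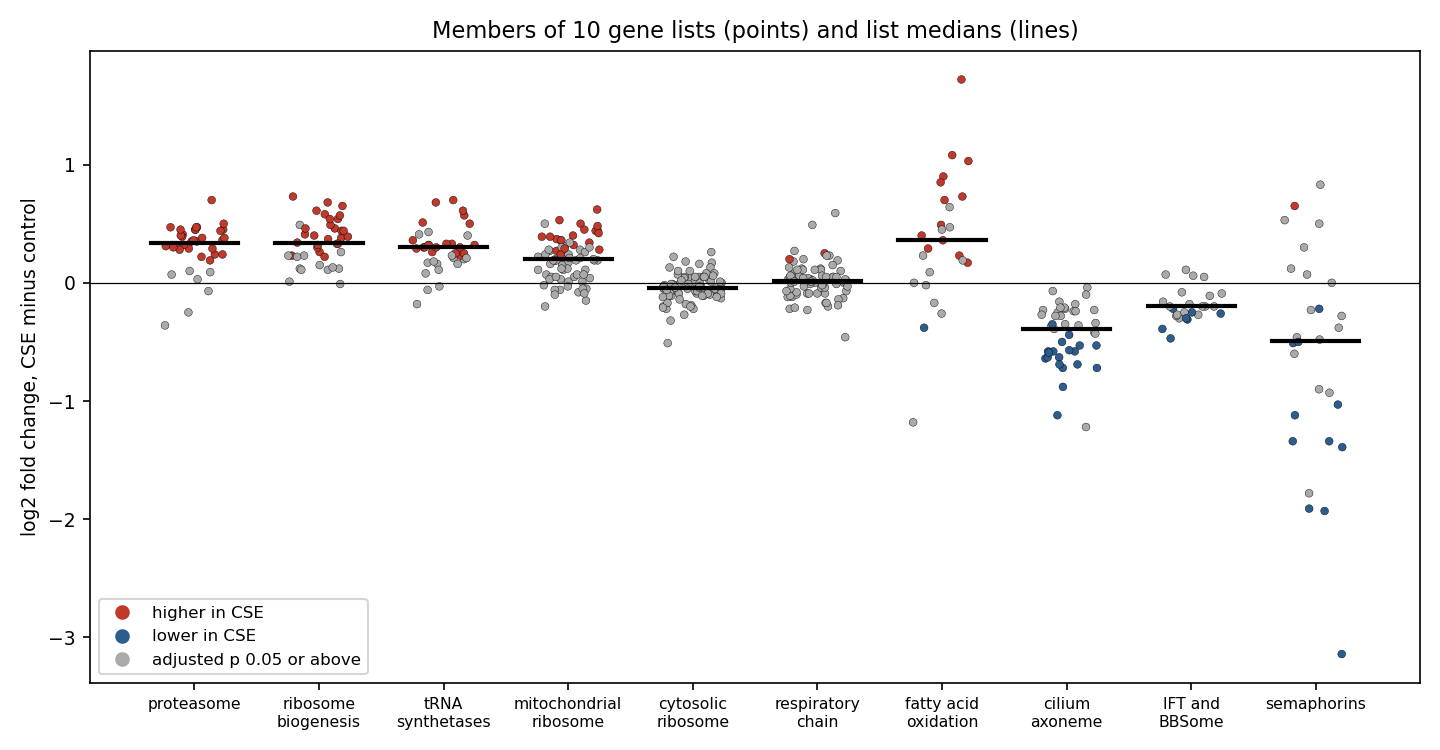
Each point is a tested member of 1 of 10 gene lists; the y axis is the log2 fold change of CSE over control, black lines are list medians, and red and blue mark members higher and lower in CSE at an adjusted p under 0.05. Proteasome, ribosome biogenesis and tRNA synthetase members lie mostly above 0 by small amounts, cilium axoneme members mostly below, and semaphorins spread widest.

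Genes for burning fatty acids were mostly higher among those that passed the test. Of 25 tested members of fatty acid oxidation and PPAR target genes 13 were higher and 1 was lower (median 0.36). Cpt1a, which commits fatty acids to mitochondria, stood at 110.5, 178, 128, 192 and 106 CPM in the CSE libraries, against 76.7, 72.3, 91.6, 86.9 and 56.3 CPM in the control libraries. CSE 2 and 4 were the highest libraries, and the difference was 0.90 ± 0.18 (adjusted p 0.00297). Cpt2, its partner on the inner membrane, stood at 64.6, 76.3, 71.9, 82.3 and 72 CPM in the CSE libraries, against 47.6, 48.4, 45.5, 45.1 and 39.5 CPM in the control libraries. Its groups did not overlap, at 0.70 ± 0.07 (adjusted p 1.66e-05). Hadhb, of the trifunctional enzyme, rose by 0.36 ± 0.07 (adjusted p 0.00163), and Acot2, a mitochondrial acyl-CoA thioesterase, by 1.03 ± 0.16 (adjusted p 0.000579). The member that fell was Acadm, the medium-chain dehydrogenase, at -0.38 ± 0.11 (adjusted p 0.0277) with overlapping groups, a call that was lost when CSE 1, 3 or 5 or control 1 or 2 was left out. The receptor Ppara differed by 0.47 ± 0.20 (adjusted p 0.114) and did not pass the test.

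Of 28 tested genes of the Atf4 integrated stress response, which raises amino acid uptake and synthesis, 9 rose and 19 did not pass the test (median 0.45). The median was 0.87 in set 1, 0.29 in set 2 and 0.40 in set 3, and leaving out a library gave counts from 6 to 11. Chac1, which degrades glutathione, stood at 40.3, 17, 45.4, 13 and 29.1 CPM in the CSE libraries, against 12.5, 11.9, 7, 8.03 and 10.1 CPM in the control libraries. CSE 2 and 4 were close to the controls and CSE 1, 3 and 5 well above them (difference 1.55 ± 0.36, adjusted p 0.00727). Pck2 and Shmt2, mitochondrial enzymes of phosphoenolpyruvate and one-carbon metabolism, rose by 0.81 ± 0.20 (adjusted p 0.00999) and 0.65 ± 0.12 (adjusted p 0.00159). Atf4 itself differed by 0.48 ± 0.22 (adjusted p 0.132) and Ddit3, which encodes CHOP, by 0.21 ± 0.35 (adjusted p 0.714). Neither passed the test.

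Amino acid transporters moved in both directions: of 30 tested 6 rose and 5 fell. Slc1a4, a neutral amino acid exchanger, stood at 334, 245, 393, 240.2 and 228 CPM in the CSE libraries, against 130.0, 121, 108, 113 and 78.6 CPM in the control libraries. It rose by 1.39 ± 0.19 (adjusted p 0.000183) with no overlap. Slc6a14, a broad neutral and cationic amino acid importer of epithelia, stood at 91.3, 122, 86.9, 118 and 81.7 CPM in the CSE libraries, against 229.9, 230.0, 291, 282 and 294 CPM in the control libraries. The highest CSE library was far below the lowest control, at -1.41 ± 0.13 (adjusted p 4.28e-06). Slc1a1, which imports glutamate and cysteine, fell by 0.65 ± 0.07 (adjusted p 2.71e-05).

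The fall with the smallest adjusted p was in Ciita, the transactivator without which MHC class II genes are not expressed. It stood at 2.78, 2.41, 2.52, 2.12 and 2.01 CPM in the CSE libraries, against 13.1, 15, 12.7, 13.8 and 12.2 CPM in the control libraries. The libraries of each group were close together and the groups far apart. The difference was -2.49 ± 0.14 (adjusted p 1.97e-07), and it was -2.39 in set 1, -2.53 in set 2 and -2.59 in set 3. In the deposited table Ciita is placed on chromosome 10, 5213350 to 5260608, in a genome build not given in the sources used here. Of 10 tested members of the class II group 3 fell, Ciita, RT1-Bb (-1.39 ± 0.29, adjusted p 0.00412) and RT1-DMb (-2.1 ± 0.46, adjusted p 0.00541). RT1-DMb was -2.67 in set 1, -2.42 in set 2 and 0.13 in set 3, and its groups overlapped. The list median was likewise -0.70 in set 1, -0.70 in set 2 and 0.12 in set 3. Cd74, the invariant chain, differed by -0.41 ± 0.28 (adjusted p 0.316) and did not pass the test. With the library set as a block 9 of the 10 members were lower, where 20.6% of all genes tested were lower and 19.2% higher. The RT1 genes are close relatives, so reads could have been split among them.

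Of 16 tested subunits and feedback inhibitors of the inflammatory factor NF-κB 9 were lower (median -0.40). Without control 5, 9 were lower and 2 higher. Relb, a subunit of the alternative pathway, stood at 14.9, 15.8, 12.2, 17.7 and 14.5 CPM in the CSE libraries, against 28.3, 29.8, 28.6, 25.3 and 25.5 CPM in the control libraries. The highest CSE library was well under the lowest control, at -0.87 ± 0.09 (adjusted p 1.87e-05). Nfkb1 fell by 0.53 ± 0.11 (adjusted p 0.00411) and Ikbke, a kinase upstream, fell by 0.59 ± 0.07 (adjusted p 4.96e-05). Tnfaip3, a deubiquitinase that ends the signal, stood at 15.1, 26.5, 15.4, 24.3 and 18.8 CPM in the CSE libraries, against 34.5, 35, 43.6, 39.4 and 125 CPM in the control libraries. Control 5 was about 3 times the other controls. The CSE libraries lay below all of them, at -1.47 ± 0.34 (adjusted p 0.00693), and without control 5 the difference was -0.93 (adjusted p 0.00423). Rela, the main activating subunit, differed by -0.01 ± 0.05 (adjusted p 0.942).

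Of 14 tested chemokines 6 fell, and of 16 tested interleukins, Tnf family members and colony-stimulating factors 9 fell. The cytokine count was 5 without CSE 1, 4 without CSE 3 and 3 without library set 3. Ccl20, which draws dendritic and T helper cells, stood at 12.6, 14.6, 8.43, 13.7 and 6.16 CPM in the CSE libraries, against 18.9, 23.9, 22.5, 21.8 and 58.9 CPM in the control libraries. Control 5 was the highest, the groups did not overlap, and the difference was -1.39 ± 0.33 (adjusted p 0.00782), or -0.83 (adjusted p 0.0211) without library set 3. Cxcl16 fell by 0.27 ± 0.07 (adjusted p 0.0105). Csf2, the granulocyte-macrophage factor, stood at 0.336, 0.431, 0.183, 0.492 and 0.279 CPM in the CSE libraries, against 1.75, 2.17, 2.84, 1.85 and 11.5 CPM in the control libraries. Control 5 was over 4 times the next control, and the difference of -3.54 ± 0.74 (adjusted p 0.00409) was -2.64 (adjusted p 0.00792) without it. Nos2, the inducible nitric oxide synthase, stood at 2.4, 2.59, 1.72, 2.45 and 6.95 CPM in the CSE libraries, against 17.1, 20.5, 18.1, 17.9 and 162 CPM in the control libraries. Control 5 was about 8 times the other controls, and without it the difference of -3.87 ± 0.74 (adjusted p 0.00218) was -2.52 (adjusted p 0.00119). Nox1, a superoxide-producing oxidase, stood at 0.272, 0.5, 0.316, 0.673 and 0.489 CPM in the CSE libraries, against 2.61, 3.07, 4.29, 2.98 and 2.49 CPM in the control libraries, with no overlap and no library apart (difference -2.77 ± 0.39, adjusted p 0.000261).

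Of 14 tested complement genes 5 fell. C3, the central component, stood at 1716, 2334, 1571, 2259 and 1362 CPM in the CSE libraries, against 3157, 3318, 5582, 4893 and 3393 CPM in the control libraries. Controls 3 and 4 were the highest, every CSE library was below every control, and the difference was -1.14 ± 0.20 (adjusted p 0.00116). C1r, a protease of the classical pathway, fell by 1.3 ± 0.26 (adjusted p 0.00332), and Cd55, which protects cells from complement, fell by 0.48 ± 0.08 (adjusted p 0.00114).

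Part of the genes of matrix, its receptors and its proteases fell, and Timp3, Tnc, Adamts1, Col4a3, Lox and Fbln5 were 6 of the 12 largest falls named here. The fall of Adamts1, a secreted protease of proteoglycans, was -3.56 ± 0.79 (adjusted p 0.00576) with all libraries and -1.64 (adjusted p 0.00162) without control 5. Of 21 tested wound matrix and receptor genes 11 were lower (median -0.86), and of 22 metalloproteinases, their inhibitors and plasminogen activators 10 were lower (median -0.91). Timp3, a matrix-bound inhibitor of metalloproteinases, stood at 0.767, 1.31, 0.283, 0.837 and 0.594 CPM in the CSE libraries, against 6.86, 9.8, 15, 15.3 and 10.9 CPM in the control libraries. The highest CSE library was far below the lowest control, at -3.93 ± 0.40 (adjusted p 1.7e-05). Lox, which crosslinks collagen, stood at 4.32, 12.3, 1.5, 11.8 and 1.26 CPM in the CSE libraries, against 65.7, 62.1, 74.1, 66.5 and 54.7 CPM in the control libraries. CSE 2 and 4 kept about 12 CPM and the other CSE libraries under 5, while the controls were alike (difference -3.37 ± 0.64, adjusted p 0.00214). Mmp9, a gelatinase, stood at 0.176, 0, 0.117, 0.197 and 0 CPM in the CSE libraries, against 2.56, 2.73, 2.24, 2.51 and 0.891 CPM in the control libraries. In the CSE group 2 libraries held no count of it, so no fold is given, and control 5 was the lowest control. Adam8, a membrane protease, fell by 0.55 ± 0.10 (adjusted p 0.00202).

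Itga2, the collagen-binding integrin chain, stood at 24.8, 39.2, 23.1, 34 and 16.7 CPM in the CSE libraries, against 61.7, 64.2, 82, 74.4 and 96.7 CPM in the control libraries. Every CSE library was under every control, at -1.46 ± 0.21 (adjusted p 0.000293), and Itgb1, the chain it pairs with, fell by 0.53 ± 0.10 (adjusted p 0.0026). Fbln5, of elastic fibres, stood at 1.42, 1.48, 0.733, 1.3 and 0.838 CPM in the CSE libraries, against 5.98, 8.49, 18.1, 13.7 and 13.5 CPM in the control libraries (difference -3.37 ± 0.40, adjusted p 5.78e-05), with controls 1 and 2 the lowest controls. Col4a3, of basement membranes, stood at 2.16, 0.982, 0.616, 0.378 and 0.629 CPM in the CSE libraries, against 6.79, 9.15, 6.32, 5.47 and 24.4 CPM in the control libraries. Control 5 was over 2 times the other controls, and the difference was -3.45 ± 0.54 (adjusted p 0.000558), or -2.86 (adjusted p 0.000592) without control 5. The summed level of smooth muscle, fibroblast and cartilage markers was also lower in CSE. As given above, it was 25.5 to 134 CPM in CSE and 161 to 593 CPM in control libraries. Of its 14 tested markers 4 fell and 1 rose. The count that fell was 2 without CSE 1, 3 or 5 or control 3 or 4, and 2 rose without control 3. Tagln, an actin-binding protein of smooth muscle and the most abundant of these markers in each of the 10 libraries, stood at 21.2, 92.2, 12.4, 106 and 12.5 CPM in the CSE libraries, against 203, 206, 464, 318 and 118 CPM in the control libraries. Cnn1, a smooth muscle marker, stood at 0, 0.172, 0.3, 0.0657 and 0 CPM in the CSE libraries, against 2.47, 3.09, 4.65, 2.93 and 1.08 CPM in the control libraries. Its CSE values were at or near the floor. In such bulk samples fewer cells of a type and less RNA per cell cannot be told apart, and the part of these cells in the falls was not tested.

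Basal cell genes fell in part. Of 14 tested 6 were lower (median -1.01), but the defining markers Krt5 (-0.86 ± 0.75, adjusted p 0.452) and Tp63 (-0.98 ± 0.67, adjusted p 0.327) did not pass the test. Cav1, which coats membrane caveolae, stood at 320.5, 326, 327, 305 and 338 CPM in the CSE libraries, against 737, 726, 562, 661 and 789 CPM in the control libraries. The CSE libraries were within a narrow range, at -1.1 ± 0.10 (adjusted p 6.28e-06). Krt17, a keratin of activated basal cells, fell by 1.05 ± 0.26 (adjusted p 0.0104), and Sfn, an epithelial adaptor protein, fell by 1.17 ± 0.26 (adjusted p 0.00543). Of 21 tight junction genes 6 fell, among them Cldn8 (-0.95 ± 0.12, adjusted p 7.65e-05), the junction adhesion molecule F11r (-0.51 ± 0.08, adjusted p 0.000691) and Cldn4 (-0.57 ± 0.11, adjusted p 0.00222). Cldn4 stood at 519.5, 533, 538, 516 and 645 CPM in the CSE libraries, against 713, 748, 752, 760.2 and 1115 CPM in the control libraries. The controls were higher throughout, control 5 the highest. Of 12 squamous cell genes 2 rose and 2 fell, and both falls lost their call without CSE 3 and 1 of them without CSE 5 or control 1, 2 or 5. Those that rose were the cornified envelope genes Tgm1 (1.09 ± 0.21, adjusted p 0.00253), a crosslinking enzyme, and Scel (0.93 ± 0.15, adjusted p 0.000728).

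Semaphorins, guidance molecules that also act between epithelial and immune cells, were tested together with their plexin and neuropilin receptors. Of 28 genes 11 were lower, 1 was higher and 16 did not pass the test (median -0.49). Sema7a, a membrane-anchored semaphorin that binds integrins, stood at 7.8, 16.5, 8.23, 13.1 and 9.69 CPM in the CSE libraries, against 40.4, 41.4, 41.9, 41.3 and 42.3 CPM in the control libraries. The controls were almost identical and the highest CSE library was far below them, at -1.91 ± 0.17 (adjusted p 4.28e-06). Sema3d, a secreted member, stood at 0.336, 0.293, 0.217, 0.41 and 0.349 CPM in the CSE libraries, against 1.32, 2.48, 3.52, 2.79 and 4.1 CPM in the control libraries. Its groups did not overlap (-3.14 ± 0.41, adjusted p 0.000137). Sema4a fell by 1.12 ± 0.15 (adjusted p 0.000201) and Sema3f fell by 0.50 ± 0.08 (adjusted p 0.000613). The receptor Plxnd1 fell by 1.34 ± 0.27 (adjusted p 0.00307). The member that rose was Sema6c, at 0.65 ± 0.20 (adjusted p 0.0319), a call that was lost when CSE 4, CSE 5, control 1 or control 2 was left out. Without control 5, 2 members rose.

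In the activin, TGF-β and BMP pathway, whose ligands restrain epithelial growth and drive matrix production, 2 genes rose and 7 fell of 29 tested (median -0.71). Id2, which blocks helix-loop-helix factors, stood at 43.7, 55.6, 48, 67.4 and 47.8 CPM in the CSE libraries, against 8.93, 10.6, 12.2, 10.1 and 12.6 CPM in the control libraries. The lowest CSE library was over 3 times the highest control, and the difference was 2.27 ± 0.15 (adjusted p 3.49e-07). Bambi, a decoy receptor, stood at 2.57, 3.05, 4.1, 2.97 and 4.4 CPM in the CSE libraries, against 0.706, 0.144, 0.803, 0.696 and 0.687 CPM in the control libraries. Its groups did not overlap, at 2.49 ± 0.35 (adjusted p 0.000225). Id3, a relative of Id2, stood at 0.512, 0.931, 1.18, 0.821 and 1.14 CPM in the CSE libraries, against 1.2, 2.14, 3.64, 2.68 and 12 CPM in the control libraries. It fell by 2.24 ± 0.54 (adjusted p 0.00924), with control 5 far above the other controls, and without that library the difference was -1.4 (adjusted p 0.0182). Bmpr2, a BMP receptor, fell by 0.31 ± 0.08 (adjusted p 0.0108). The count of genes that fell was unstable: it was 4 without CSE 1, 4 without CSE 3, 4 without control 3, 3 without library set 3, and 18 with the library set as a block, against 20.6% of all genes lower.

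Of 20 tested Notch genes 4 fell: the ligands Jag1 (-1.02 ± 0.22, adjusted p 0.00481) and Jag2 (-0.51 ± 0.15, adjusted p 0.0232, a call lost without CSE 3 or library set 3), the receptor Notch4 (-2.06 ± 0.47, adjusted p 0.00622) and the target Hey1 (-1.7 ± 0.34, adjusted p 0.0028). Jag1 stood at 28.5, 36, 23.1, 29.7 and 24 CPM in the CSE libraries, against 41.5, 44.2, 57.8, 47.9 and 95.3 CPM in the control libraries. The groups did not overlap, and control 5 was the highest. Notch1 (-0.56 ± 0.26, adjusted p 0.148) and the target Hes1 (-0.23 ± 0.14, adjusted p 0.276) did not pass the test. Of 15 EGF receptor ligands and receptors 1 passed it: Ereg, epiregulin, stood at 24.7, 32.3, 28.7, 34 and 19.6 CPM in the CSE libraries, against 7.43, 6.75, 5.79, 6.48 and 14.3 CPM in the control libraries. The lowest CSE library was above control 5, the highest control, at 1.77 ± 0.25 (adjusted p 0.000286). Areg, amphiregulin, differed by -0.25 ± 0.48 (adjusted p 0.752), and by 0.52 (adjusted p 0.315) without control 5. Egfr differed by -0.61 ± 0.21 (adjusted p 0.0548). Without control 5, 2 genes of this list were higher, and 1 or 2 were lower without CSE 2, CSE 4, control 1 or control 2.

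Single members stood out in smaller groups. Among 11 metallothioneins and zinc transporters 1 fell, or 2 without CSE 5 or control 1, and 1 rose. Slc39a8, the importer ZIP8 that carries zinc, manganese and cadmium, stood at 9.51, 6.34, 8.23, 5.7 and 7.25 CPM in the CSE libraries, against 22.1, 30.8, 38.7, 28.6 and 41.3 CPM in the control libraries. The highest CSE library was far below the lowest control, at -2.12 ± 0.22 (adjusted p 1.7e-05). Slc39a10, a zinc importer of the same family, rose by 0.37 ± 0.07 (adjusted p 0.0017), while the rows named for the metallothioneins Mt1 (0.85 ± 0.40, adjusted p 0.147) and Mt2A (-0.96 ± 0.37, adjusted p 0.0795) did not pass the test. The Mt1 row, at means of 2.04 CPM in CSE and 1.13 CPM in control libraries, is placed on chromosome 17, 78793336 to 78793724, and Mt2A on chromosome 19. Whether the Mt1 row is the gene or a copy was not tested. Of 10 carbonic anhydrases 2 fell, or 1 without CSE 1, CSE 3, control 4 or control 5. Ca3, an isoform of low activity best known from muscle and fat, had the largest fall among the named genes whose groups did not overlap and that reached 5 CPM, and stood at 1.53, 1.83, 0.816, 1.92 and 0.472 CPM in the CSE libraries, against 18.8, 19.7, 30.8, 26.3 and 27.1 CPM in the control libraries. CSE 3 and 5 were the lowest, and the difference was -4.22 ± 0.45 (adjusted p 2.22e-05).

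Of 17 genes of extracellular nucleotides and adenosine 3 rose and 3 fell, and the count that rose was 1 when CSE 3, CSE 5 or any of controls 1 to 4 was left out. Nt5e, a surface enzyme that makes adenosine from AMP, stood at 437, 452, 396, 402 and 470.1 CPM in the CSE libraries, against 831, 798, 675, 807 and 826 CPM in the control libraries. Both groups were tight and apart, at -0.87 ± 0.08 (adjusted p 4.27e-06). Enpp1, which splits extracellular ATP, fell by 1.5 ± 0.29 (adjusted p 0.00229), and Alpl, alkaline phosphatase, fell by 1.1 ± 0.26 (adjusted p 0.00853) with overlapping groups. Of 22 clock genes 1 rose and 4 fell. The count that fell was 1 without CSE 2 or CSE 3, 2 without CSE 1, CSE 4, control 3, control 4 or control 5, and 5 without CSE 5. Without control 5, 2 clock genes rose. Clock rose by 0.34 ± 0.09 (adjusted p 0.0109) and Per2 fell by 0.54 ± 0.11 (adjusted p 0.00379), while Arntl (0.19 ± 0.11, adjusted p 0.229) and Nr1d1 (-0.68 ± 0.32, adjusted p 0.149) did not pass the test. Arntl differed by 0.34 (adjusted p 0.00119) without control 5.

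Among genes of the motile cilium the members that passed the test were all lower. Of 43 tested axoneme genes 19 fell (median -0.39). In 6 of the 43 the groups did not overlap. Dnah12, a dynein heavy chain of the inner arm, stood at 399, 378, 384, 366 and 238 CPM in the CSE libraries, against 918, 814, 766, 885 and 450.1 CPM in the control libraries. Control 5 was the lowest control and CSE 5 the lowest CSE library, and the groups did not overlap. The difference was -1.12 ± 0.19 (adjusted p 0.000897). Ccdc151, of the outer arm docking, fell by 0.72 ± 0.12 (adjusted p 0.00115), Tekt2, a tektin, fell by 0.69 ± 0.13 (adjusted p 0.00202), and Zmynd10, an assembly factor of dyneins, fell by 0.58 ± 0.11 (adjusted p 0.00204). The count was 30 without control 5 and 30 without library set 3, and leaving out 1 library gave 13 to 30. The median was -0.49 in set 1, -0.35 in set 2 and -0.21 in set 3.

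Of 25 genes of intraflagellar transport and the BBSome, which build and sort cilia, 7 fell (median -0.20). That count was 12 without control 5, 3 without CSE 1, CSE 5, control 1 or control 4, 4 without CSE 3 or control 2, and 2 on FPKM values. Ift27 fell by 0.47 ± 0.11 (adjusted p 0.00845) and Ift46 fell by 0.39 ± 0.10 (adjusted p 0.0152). Of 12 regulators of the multiciliated fate 4 fell and 1 rose, a rise whose call was lost when any library except CSE 1, control 1 or control 2 was left out. Myb, an early factor of that fate, stood at 7.11, 7.29, 7.3, 6.52 and 3.6 CPM in the CSE libraries, against 20.1, 17.2, 13.8, 15.3 and 7.48 CPM in the control libraries. Control 5 was just above the highest CSE library, and the difference was -1.21 ± 0.29 (adjusted p 0.00885). Deup1, which builds centrioles in these cells, fell by 0.52 ± 0.10 (adjusted p 0.00156).

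Of 12 secretory cell genes 1 fell, or 2 without CSE 1 or control 1. Pigr, the receptor that carries IgA across the epithelium, stood at 6873, 7702, 6956, 6841 and 7122 CPM in the CSE libraries, against 10391, 10162, 10834, 12009 and 9737 CPM in the control libraries. The groups did not overlap, at -0.58 ± 0.08 (adjusted p 0.000244). Scgb1a1, the club cell secretoglobin, differed by -0.67 ± 0.24 (adjusted p 0.0548) and did not pass the test. Of 18 mucin and goblet cell genes 4 fell and 3 rose, but at most 1 rose when any single library was left out, and the gel-forming mucin Muc5b differed by -1.95 ± 0.77 (adjusted p 0.0858). Slc26a4, pendrin, which exchanges chloride for bicarbonate and thiocyanate, stood at 7.9, 5.69, 3.41, 6.39 and 3.72 CPM in the CSE libraries, against 16.4, 25, 31.5, 27.3 and 34.7 CPM in the control libraries. The highest CSE library was far below the lowest control, at -2.31 ± 0.29 (adjusted p 8.8e-05). Of 23 channels and pumps that set the airway surface liquid 8 fell and 2 rose, or 1 rose without CSE 5 or any of controls 1 to 4. Scnn1a, the sodium channel subunit, stood at 224, 206, 219.7, 184 and 194 CPM in the CSE libraries, against 322, 325, 279, 315 and 282 CPM in the control libraries. It fell by 0.57 ± 0.07 (adjusted p 0.000102) without overlap, and Atp1b1, a sodium pump subunit, fell by 0.45 ± 0.10 (adjusted p 0.00579). Cftr, the chloride channel, differed by -1.36 ± 0.54 (adjusted p 0.086), which did not pass the test.

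Of 38 cell cycle genes 13 fell and 1 rose (median -0.54). Cenpf, a kinetochore protein, stood at 2.35, 0.707, 2.05, 0.952 and 1.01 CPM in the CSE libraries, against 10.1, 13.3, 1.78, 4.21 and 12.9 CPM in the control libraries. Control 3 overlapped the CSE libraries, and the difference was -2.58 ± 0.56 (adjusted p 0.00475). Mcm7, of the replicative helicase, fell by 0.39 ± 0.09 (adjusted p 0.00734) and Ccnd2, cyclin D2, fell by 1.48 ± 0.35 (adjusted p 0.00893), both without overlap. The count that fell was 7 without CSE 5, 8 without control 2, 5 without library set 3 and 6 with a replicate block. It was 16 without CSE 1 and 17 without control 3. The call of the rise was lost without CSE 1, CSE 5, control 1, control 3 or control 4, while 2 rose without CSE 3 or control 2.

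In other lists the counts were close to or below the background shares. Of 24 p53 targets 3 rose and 2 fell, of 25 endoplasmic reticulum chaperones 1 rose and 3 fell, of 26 cholesterol genes 1 rose and 1 fell, of 20 heat shock factor targets 2 rose and 1 fell, and of 35 lysosomal genes 4 rose and 4 fell. Several of these small counts moved: 1 p53 target rose without CSE 2, control 1 or control 4, 5 rose without control 5, and 4 fell without CSE 5. Heat shock factor targets that rose numbered 1 without CSE 3, 4 or 5 or control 4 or 5, and 2 cholesterol genes fell without CSE 1, control 3 or control 5. Gdf15, a stress hormone of the p53 list, stood at 187, 122, 214, 125 and 190.5 CPM in the CSE libraries, against 62.3, 61.8, 28.6, 32.7 and 113 CPM in the control libraries. Control 5 came close to the lowest CSE library, and the difference was 1.49 ± 0.32 (adjusted p 0.00455). Of 30 hypoxia and glycolysis genes 2 rose and 1 fell. The count that fell was 5 without CSE 5, 2 without control 1, 3 or 4, 7 without library set 3, and 17 with the library set as a block, against 20.6% of all genes lower. Hk1, hexokinase 1, rose by 0.69 ± 0.09 (adjusted p 0.000174), and Pfkl, liver phosphofructokinase, fell by 0.60 ± 0.09 (adjusted p 0.000352). Of 26 interferon-induced genes 4 fell. Of 29 immediate early genes 2 rose and 4 fell, and without control 5 the counts were 9 and 3. At most 1 rose when any other library except CSE 2 or CSE 4 was left out. The count that fell was 2 without CSE 1, 3 or 5 or control 4, and 5 without control 1 or control 2. Egr2, one of the 12 largest falls, stood at 0.416, 0.5, 0.533, 0.131 and 0.332 CPM in the CSE libraries, against 1.34, 1.06, 1.61, 1.83 and 21 CPM in the control libraries, and control 5 was more than 10 times the next control. Its difference was -3.8 ± 0.82 (adjusted p 0.00492), and -1.93 (adjusted p 0.00245) without control 5.

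**Figure D5:**
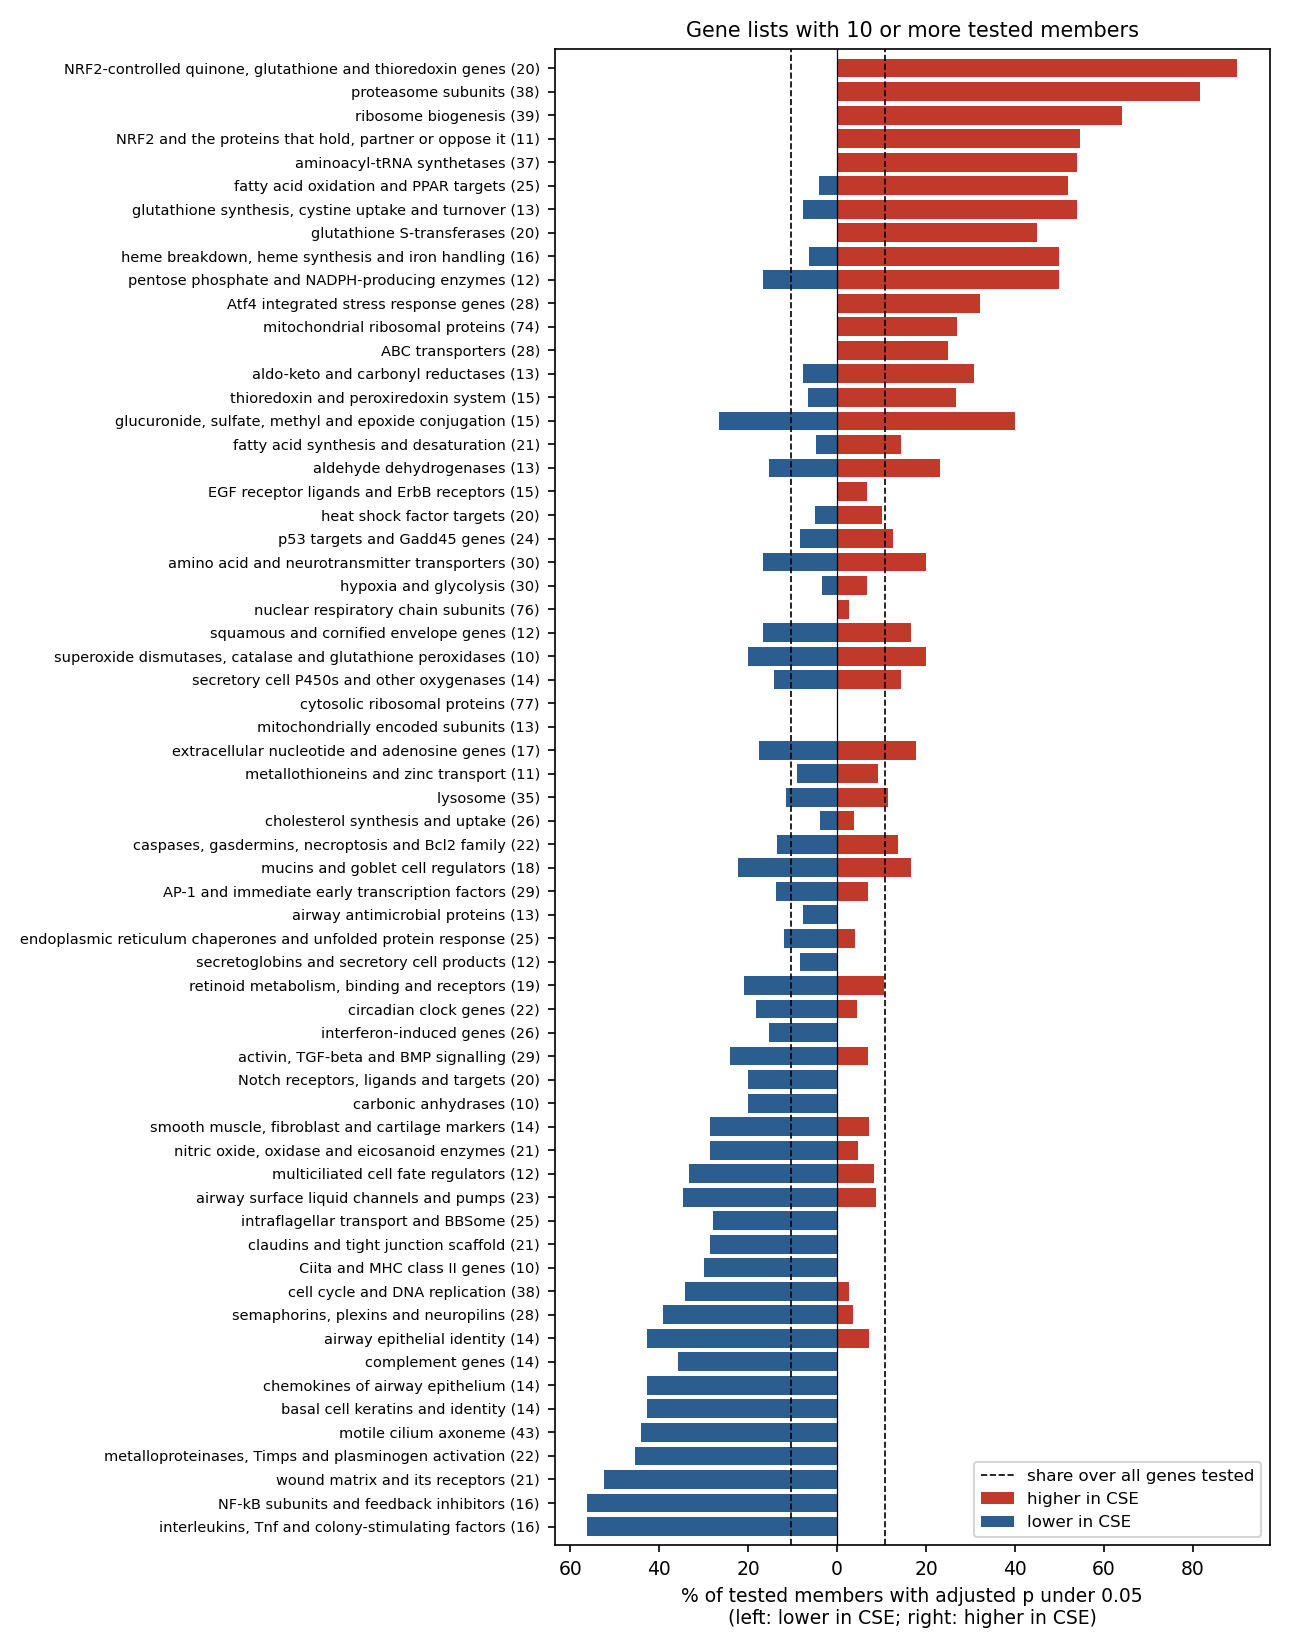
Share of tested members (x axis, %) of each gene list that was higher (red, right) or lower (blue, left) in CSE at an adjusted p under 0.05, for lists with at least 10 tested members (number in parentheses). Lists are ordered by the share higher minus the share lower. Dashed lines mark the shares over all genes tested, 10.8% higher and 10.4% lower.

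Of the 12 largest rises 4 belong to none of the lists: Lexm, Mest, Fut1 and the peptide importer Slc15a1 described above. Lexm stood at 25.9, 13.3, 31.8, 16.3 and 17.5 CPM in the CSE libraries, against 0.759, 0.449, 1.83, 0.609 and 1.08 CPM in the control libraries. The CSE libraries of set 1 were the highest, with a difference of 4.47 ± 0.38 (adjusted p 2.95e-06). Mest, an imprinted gene, stood at 5.64, 4.76, 6.33, 5.86 and 4.19 CPM in the CSE libraries, against 0.988, 1.61, 1.18, 0.905 and 0.854 CPM in the control libraries, and Fut1, which adds the fucose of the H blood group antigen, stood at 18.2, 7.95, 22.5, 7.32 and 16.6 CPM in the CSE libraries, against 3.74, 3.34, 1.81, 2.14 and 4.01 CPM in the control libraries. Both were higher in every CSE library than in any control, by 2.27 ± 0.22 (adjusted p 1.11e-05) and 2.27 ± 0.38 (adjusted p 0.000825). Rab15, an endosomal GTPase, was among the 10 genes with the smallest adjusted p. It stood at 338, 350.5, 325, 313 and 331 CPM in the CSE libraries, against 600.4, 586, 558, 587 and 532 CPM in the control libraries, with both groups tight and a difference of -0.79 ± 0.06 (adjusted p 5.65e-07).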

How the data were processed

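Polyadenylated RNA of 15 libraries was sequenced with unique molecular identifiers, per the labels' protocols. Per the submitters' processing notes, StringTie 1.3.4d, HISAT2 2.0.4 and cutadapt 1.9 were used, with UMI-tools, edgeR and DESeq2, in roles that are not stated. The authors deposited 1 table of 21969 genes with raw counts and FPKM per library. The sources used here name no genome build.

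Counts as deposited were filtered (filterByExpr), scaled by TMM and fitted with edgeR 4.0.16 in R 4.3.3 by quasi-likelihood to the 15 libraries by group alone. P-values were adjusted over 15860 genes, and CPM are TMM-scaled. The fit was tested on simulated counts. Alternatives were DESeq2 1.42.0, limma 3.58.1 on log2 of the deposited FPKM plus 0.1 or 1, other scaling and filters, the 10 libraries alone, blocks by replicate number or library set, and each library left out. Leaving out library set 3 was added after seeing the data.

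The gene lists (68, of which 1544 of 1610 members matched the table) were chosen with earlier results of these data known. Genes named are the 12 largest rises and the 12 largest falls among symbols past 0.05 whose groups did not overlap and with a mean of at least 5 CPM in the higher group, the 10 smallest adjusted p, and in each list its key genes and the 4 smallest adjusted p. A few genes that the rule names are not reported here. Chosen after their values were seen were Abcc1, Abcc2, Acadm, Cul3, Fech, H6pd, Idh1, Mafg, Nfe2l1, Niban1, Nnt, Plxnd1, Psmb8, Psmb9, Psmb10, Rbx1, Sema6c, Slc11a2, Sult1c2, Sult1d1, Sult2b1 and Tfrc. Depth ran from 57071315 to 60553124 counts in the libraries compared, at which 3 counts are about 0.05 CPM.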

Additional observations from a re-analysis of the deposited data

Results flagged for a closer look

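Among 193 genes named in the text, 1 library lay far from the other 4 of its group in 46 cases out of 386 groups of 5. For normally distributed values the rule used would flag about 1 in 20, or 19. CPM need not be so distributed, and these genes are related and in part chosen by their values. The 19 is therefore only a rough guide, and whether 46 exceeds chance was not tested. In 30 of the 46 it was control 5 on the high side. The value of the library that stood apart is given against the range of the other 4. Control 5 was high in 4 inflammatory genes: Ccl20 (58.9 against 18.9 to 23.9 CPM), Csf2 (11.5 against 1.75 to 2.84 CPM), Nos2 (161.7 against 17.1 to 20.5 CPM) and Tnfaip3 (125.0 against 34.5 to 43.6 CPM). Control 5 was high in 10 immediate early, growth factor, guidance and matrix genes: Adamts1 (157.9 against 7.28 to 14.4 CPM), Areg (45.3 against 7.16 to 13.9 CPM), Col4a3 (24.4 against 5.47 to 9.15 CPM), Egr2 (21.0 against 1.06 to 1.83 CPM), Ereg (14.3 against 5.79 to 7.43 CPM), Fosl1 (33.2 against 3.75 to 4.49 CPM), Hes1 (67.6 against 35.6 to 42.8 CPM), Id3 (12.0 against 1.2 to 3.64 CPM), Sema4a (32.5 against 21.3 to 24.1 CPM) and Vegfa (690.7 against 169.4 to 202.1 CPM). Control 5 was high in 8 redox, iron and metabolic genes: Akr1b8 (490.6 against 269.5 to 313.8 CPM), Aldh3a1 (335.2 against 123.5 to 177.0 CPM), Dhrs9 (644.0 against 491.5 to 521.5 CPM), Hmox1 (282.6 against 138.9 to 154.2 CPM), Nfe2l2 (212.4 against 179.6 to 187.0 CPM), Niban1 (170.5 against 88.0 to 101.0 CPM), Slc11a2 (280.2 against 193.8 to 208.6 CPM) and Tfrc (108.5 against 59.1 to 72.5 CPM).

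Control 5 was high in 3 clock genes: Arntl (44.3 against 27.2 to 30.9 CPM), Nr1d1 (80.8 against 22.2 to 29.3 CPM) and Per2 (62.1 against 47.0 to 49.7 CPM). Control 5 was high in 5 epithelial, junction and secretory genes: Cldn4 (1114.6 against 712.8 to 760.2 CPM), Epcam (637.8 against 481.3 to 515.7 CPM), F11r (453.9 against 361.4 to 378.7 CPM), Muc5b (1065.9 against 106.8 to 337.8 CPM) and Scgb1a1 (1091.9 against 432.8 to 571.4 CPM). It was low in 3 genes: Idh1 (423.1 against 527.3 to 561.1 CPM), Keap1 (34.1 against 46.4 to 50.9 CPM) and Mmp9 (0.891 against 2.24 to 2.73 CPM).

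CSE 5 was high in 4 genes: Cldn4 (644.6 against 516.4 to 537.9 CPM), Nos2 (6.95 against 1.72 to 2.59 CPM), Prdx1 (3715.1 against 2511.1 to 2777.5 CPM) and Psmd2 (520.4 against 431.6 to 455.4 CPM). It was low in 3: Cd55 (45.4 against 53.5 to 56.5 CPM), Dnah12 (238.4 against 366.5 to 398.6 CPM) and Myb (3.6 against 6.52 to 7.3 CPM). In single genes another library stood apart. CSE 3 was high in Acot2 (11.9 against 8.65 to 9.52 CPM). Control 2 was low in Bambi (0.144 against 0.687 to 0.803 CPM). Control 3 was high in Mrps22 (13.1 against 10.0 to 10.9 CPM). CSE 1 was high in Notch1 (55.2 against 22.7 to 30.1 CPM). Control 3 was low in Nt5e (674.7 against 797.7 to 830.7 CPM). CSE 4 was low in Sult1d1 (0.46 against 1.12 to 1.33 CPM).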

How the results depend on the processing

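The counts of genes past an adjusted p of 0.05 stayed within 1.5 times of 1711 higher and 1652 lower under other scaling, filters, tools and sample sets. The exception was a block by library set, with 3051 higher and 3274 lower, which included all 1711 and all 1652. Because the sets were drawn from these same counts, the larger counts with that block are not separate support. Genes at least 2-fold higher numbered 75 and at least 2-fold lower 158 on log2(FPKM + 1), a scale that compresses low genes, against 192 and 531. Genes at least 2-fold lower numbered 344 without library set 3. Leaving out 1 library gave 1335 to 1739 genes higher, 1255 to 1776 lower, 161 to 200 at least 2-fold higher and 394 to 554 at least 2-fold lower.

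The replicate numbers of the labels paired the libraries only in part. Same-numbered CSE and control libraries deviated from their group means with correlations of 0.186, -0.264, -0.337, 0.327 and 0.3 for replicates 1 to 5. CSE and control replicates 1, 4 and 5 shared a library set, and replicates 2 and 3 did not. A replicate block gave 1764 genes higher and 1728 lower. Of 163 genes named in the text that passed the threshold 157 kept their call in all 10 leave-outs, and Acadm, Cox5a, Fth1, Jag2, Sema6c and Tagln did not. Many of these genes were named for their values in these same libraries, so this share is not separate support. Over all genes, leaving out 1 library kept 1297 to 1474 of the 1711 higher calls and 1225 to 1431 of the 1652 lower calls. The AP-1 subunit Fosl1 (-0.3, adjusted p 0.743) and the growth factor Vegfa (-0.34, adjusted p 0.491) did not pass the test with all libraries. When 1 library was left out Fosl1 ranged from -0.51 to 0.97, the last without control 5 (adjusted p 0.00692), and it was 0.79 (adjusted p 0.00902) without library set 3. Vegfa ranged from -0.48 to 0.29, the last without control 5 (adjusted p 0.0387). The median over all genes was -0.016 to 0.056 under the alternatives. Depth limits Gsta5, Mmp9 and Cnn1, which had libraries with no count.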
